A study of Homo sapiens with 6 samples.

Results

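The genes described here encode 9 secreted proteins of the extracellular matrix: SPARC, SPOCK1, FN1, THBS1, THBS2, TNC, POSTN, LOX and TGFBI. They were picked by gene symbol out of 59008 symbols in a table of transcript levels from ovarian cancer cells, and their levels in these same libraries were known when they were picked. Their values are therefore given as a description with no test. Of the 9 genes, 7 had a mean level of at least 1 TPM (transcripts per 1000000, a length-adjusted share of the transcripts in a library) and stood among the 14988 genes that reached it. THBS2 and POSTN did not.

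Total RNA of the established ovarian cancer cell lines Hey and SKOV3 was sequenced in 3 states with 1 library per state and line, so that no value below has a replicate error. Parental cells were untreated. Polyploid giant cancer cells (PGCCs), very large cells with an increased DNA content that survive an antimitotic drug, were collected after 500 nM paclitaxel, a drug that stabilises microtubules, given for 16 h and followed by 3 days of recovery in drug-free medium. For the SKOV3 PGCCs the treatment label gives 3 days and the title day 7, and the Hey title gives day 3. Daughter cells, the small cells that grow out of PGCCs, came from the same exposure after 30 days of recovery, and each daughter library is labelled as clone 1, so that it stands for 1 clone of its line. Hey cells were kept in MEM Eagle and SKOV3 cells in RPMI-1640, both with 10% fetal bovine serum, so that line and medium cannot be told apart in any comparison between the lines.

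Matricellular proteins sit in the extracellular matrix without being its main load-bearing fibres, and they modulate how cells attach, spread and receive growth factors. SPARC binds collagen and tends to weaken cell adhesion, and SPOCK1 (testican-1) is a proteoglycan of the same family. FN1 encodes fibronectin, which cells assemble into fibrils through integrins, and LOX is the lysyl oxidase that cross-links collagen and elastin. The thrombospondins THBS1 and THBS2 bind the receptors CD36 and CD47, tenascin-C (TNC) counteracts adhesion to fibronectin, and TGFBI and periostin (POSTN) are related proteins built of fasciclin domains that bind integrins. In ovarian carcinoma these proteins are made both by tumour cells and by stromal fibroblasts, and only cultured tumour cells were sequenced here.

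The stretch upstream of the start is printed for the 2 genes that rose past 2-fold in the daughter cells of both lines against parental cells, SPARC and THBS1, and for the 2 that fell most in those of SKOV3, FN1 and TGFBI. Each run is the 250 bases before the start of the RefSeq gene on GRCh38.p14, written 5′ to 3′ on the coding strand, and capitals mark letters that match one of 6 searched motifs. The positions are chr5:151686916-151687165 on the minus strand for SPARC, chr15:39580829-39581078 on the plus strand for THBS1, chr2:215436069-215436318 on the minus strand for FN1 and chr5:136028738-136028987 on the plus strand for TGFBI.
SPARC: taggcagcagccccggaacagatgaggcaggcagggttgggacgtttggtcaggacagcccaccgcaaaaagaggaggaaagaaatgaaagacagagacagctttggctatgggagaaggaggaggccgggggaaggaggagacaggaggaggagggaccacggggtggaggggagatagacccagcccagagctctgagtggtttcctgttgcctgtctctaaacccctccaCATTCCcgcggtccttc
THBS1: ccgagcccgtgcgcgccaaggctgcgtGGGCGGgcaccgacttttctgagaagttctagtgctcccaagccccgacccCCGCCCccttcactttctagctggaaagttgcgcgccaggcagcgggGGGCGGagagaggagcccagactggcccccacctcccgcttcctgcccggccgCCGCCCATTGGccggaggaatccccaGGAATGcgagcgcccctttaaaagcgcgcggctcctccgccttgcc
FN1: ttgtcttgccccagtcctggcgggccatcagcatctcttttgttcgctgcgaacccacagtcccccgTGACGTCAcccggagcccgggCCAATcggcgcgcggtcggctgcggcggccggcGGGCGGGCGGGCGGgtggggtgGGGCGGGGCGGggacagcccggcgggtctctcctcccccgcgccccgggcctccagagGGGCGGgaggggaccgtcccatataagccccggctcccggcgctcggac
TGFBI: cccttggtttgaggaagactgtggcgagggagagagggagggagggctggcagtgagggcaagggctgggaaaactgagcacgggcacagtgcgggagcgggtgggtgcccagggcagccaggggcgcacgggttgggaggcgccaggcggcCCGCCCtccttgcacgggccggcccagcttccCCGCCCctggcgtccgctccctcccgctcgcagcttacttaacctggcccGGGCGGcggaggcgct
The motifs were the TATA box (TATAAA, coding strand only) and, on both strands, the CCAAT box (CCAAT), the GC box (GGGCGG), the AP-1 element (TGANTCA), the cAMP response element (TGACGTCA) and the TEAD element (GGAATG). SPARC held 1 TEAD element close to its start and none of the other motifs. THBS1 held 1 TEAD element, 4 GC boxes and 1 CCAAT box that lies against a GC box. FN1 held 6 GC boxes, some of which overlap each other, 1 CCAAT box and 1 cAMP response element, and TGFBI held 3 GC boxes. Of 35116 RefSeq promoters of this length, 11.9% held a TEAD element, 42.6% a GC box, 32% a CCAAT box, 6.8% a TATA box, 6.57% an AP-1 element and 1.65% a cAMP response element. Such a match is a run of letters and says nothing about whether a factor was bound. Of the 9 genes 8 had a promoter in the table used, and SPOCK1 had none. The others were not printed: TNC held 1 GC box, LOX 1 GC box and 1 CCAAT box at the most upstream of its 3 listed starts, THBS2 1 TATA box and 2 TEAD elements, and POSTN 1 TATA box and 1 AP-1 element.

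On GRCh38 (GENCODE release 44) 4 of the 9 genes lie on chromosome 5: SPARC at chr5:151661096-151686975, SPOCK1 at chr5:136975298-137598379, LOX at chr5:122063195-122078413 and TGFBI at chr5:136028988-136063818. FN1 lies at chr2:215360440-215436073, THBS1 at chr15:39581079-39599466, TNC at chr9:115019575-115118207, THBS2 at chr6:169215780-169254050 and POSTN at chr13:37562583-37598844. A gene on the opposite strand overlaps LOX (SRFBP1), THBS1 (FSIP1), SPARC (CLMAT3) and TNC (DELEC1). SRFBP1 was listed at 10.3 to 29.8 TPM, and the LOX level is uncertain to the extent that reads of this pair could not be separated, since no strand setting is given in the sources used here. FSIP1 stayed between 0.390 and 2.05 TPM, CLMAT3 was listed at 0 in all 6 libraries, and DELEC1 was at 0 in all but Hey PGCCs at 0.228 TPM. THBS1-AS1, THBS1-IT1 and THBS2-AS1 also overlap members and were not analysed here.

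Changes are given as differences of log2(TPM + 1), and a gene was said to rise or fall when that difference reached 1, which is 2-fold on this scale. The scale understates ratios of low levels. In bulk samples fewer cells that express a gene and less of its RNA per cell cannot be told apart, and TPM measures a share of a library, not an amount per cell.

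The 6 libraries summed to between 911825 and 920497 TPM over the listed genes, and 19920 to 25370 genes were above 0. Mitochondrial transcripts took 2.64%, 12.3% and 7.60% of the listed TPM in the parental, PGCC and daughter libraries of Hey and 9.17%, 7.37% and 14.8% in SKOV3. ERBB2, which is amplified in SKOV3, was at 1127 to 1778 TPM in the SKOV3 libraries and 8.20 to 14.1 TPM in the Hey libraries. Of 8 epithelial markers 7 to 8 reached 1 TPM in SKOV3 and 4 to 6 in Hey, with sums of 1429 to 3298 TPM and 1090 to 2038 TPM. CDH1 (E-cadherin), a defining epithelial marker, was listed at 0 in Hey parental cells and PGCCs and at 0.0283 TPM in Hey daughter cells, and EPCAM was at 0.369 to 1.43 TPM in Hey. In SKOV3 several epithelial markers moved with the states: KRT7, KRT8, KRT19, CDH1 and PAX8 rose in PGCCs against parental cells, where the sum was 3298 against 1477 TPM. Over all genes the differences of this comparison followed the GC content of the transcripts, with a Spearman correlation of 0.72. The marker values are given without removal of that trend. In SKOV3 daughter against parental cells CDH1 rose, from 1.47 to 8.35 TPM, EPCAM fell from 68.8 to 8.15 TPM and KRT19 fell from 292 to 80.2 TPM. In Hey daughter cells KRT7 rose by 1.32 against parental cells and KRT19 was listed at 0, against 2.47 TPM. The part of any of these markers in the results on the 9 genes was not tested. Of 10 fibroblast markers 2 to 4 reached 1 TPM, and their sums were 59.0, 71.3 and 59.4 TPM in Hey, of which ACTA2 held 47.3 to 56.3 TPM, and 14.2, 14.6 and 29.6 TPM in SKOV3. The fibrillar collagen gene COL3A1 was listed at 0 in 5 of the 6 libraries and at 0.0790 TPM in Hey PGCCs. Of 6 endothelial and blood markers 2 reached 1 TPM in each Hey library and 1 in each SKOV3 library, and the blood cell marker PTPRC was listed at 0 in all 3 Hey libraries. The markers of this list above 1 TPM in Hey were CDH5, at 48.5, 35.5 and 33.2 TPM, and CD68, at 46.3, 69.3 and 45.6 TPM. In SKOV3 CDH5 was at 0, 0.0347 and 2.56 TPM and CD68 at 17.1, 20.03 and 0.840 TPM, and CD68 fell by 3.30 in daughter against parental cells.

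SPARC rose in the daughter cells of both lines and had the largest rise of the 9 genes in SKOV3. Its Hey levels were 196 TPM before treatment, 206 TPM in PGCCs and 591 TPM in daughter cells. Its SKOV3 levels were 19.7, 45.5 and 865 TPM in the same order. The daughter library was the highest of its line in both lines, and the SKOV3 daughter level passed every Hey level although SKOV3 parental cells had been far below Hey parental cells. Among the 14988 genes SPARC stood at rank 5955 in SKOV3 before treatment, at 3201 as PGCCs and at 127 as daughter cells. In Hey it went from rank 619 to 544 and 210.

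SPARC rose by 5.38 in SKOV3 daughter cells against parental cells, a ratio of 43.8 in TPM, and by 1.58 in Hey, a ratio of 3.01. Against PGCCs it rose by 4.22 in SKOV3 and by 1.51 in Hey. Fibroblasts also make SPARC, and in the SKOV3 daughter library the summed fibroblast markers were at 29.6 TPM against 14.2 TPM in the parental library, with COL1A1 at 16.3 against 2.35 TPM, PDGFRB at 5.35 against 0.280 TPM and LUM at 5.56 against 8.84 TPM. COL3A1 and FAP were listed at 0 there and DCN at 0.0292 TPM, and the sums in Hey parental and daughter cells were 59.0 and 59.4 TPM. Whether fibroblasts had a part in the SPARC levels was not tested. In PGCCs against parental cells the SPARC difference was 1.17 in SKOV3, past 2-fold, and 0.07 in Hey. That Hey value became -0.01 under median ratio scaling, so that it had no settled sign.

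SPOCK1, the other member of the SPARC family, ran the opposite way. The parental, PGCC and daughter libraries of Hey had 16.0, 12.2 and 7.24 TPM, and those of SKOV3 had 16.9, 5.21 and 3.48 TPM. The parental library was the highest and the daughter library the lowest in each line. SPOCK1 fell by 1.04 in Hey daughter cells against parental cells, and it fell by 2.0 in SKOV3. The Hey value was -0.97, short of 2-fold, once mitochondrial genes were left out of the totals. It fell by 1.53 in SKOV3 PGCCs against parental cells, and the Hey difference was -0.37. Between daughter cells and PGCCs the differences were -0.68 in Hey and -0.47 in SKOV3, both within 2-fold.

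**Figure D1:**
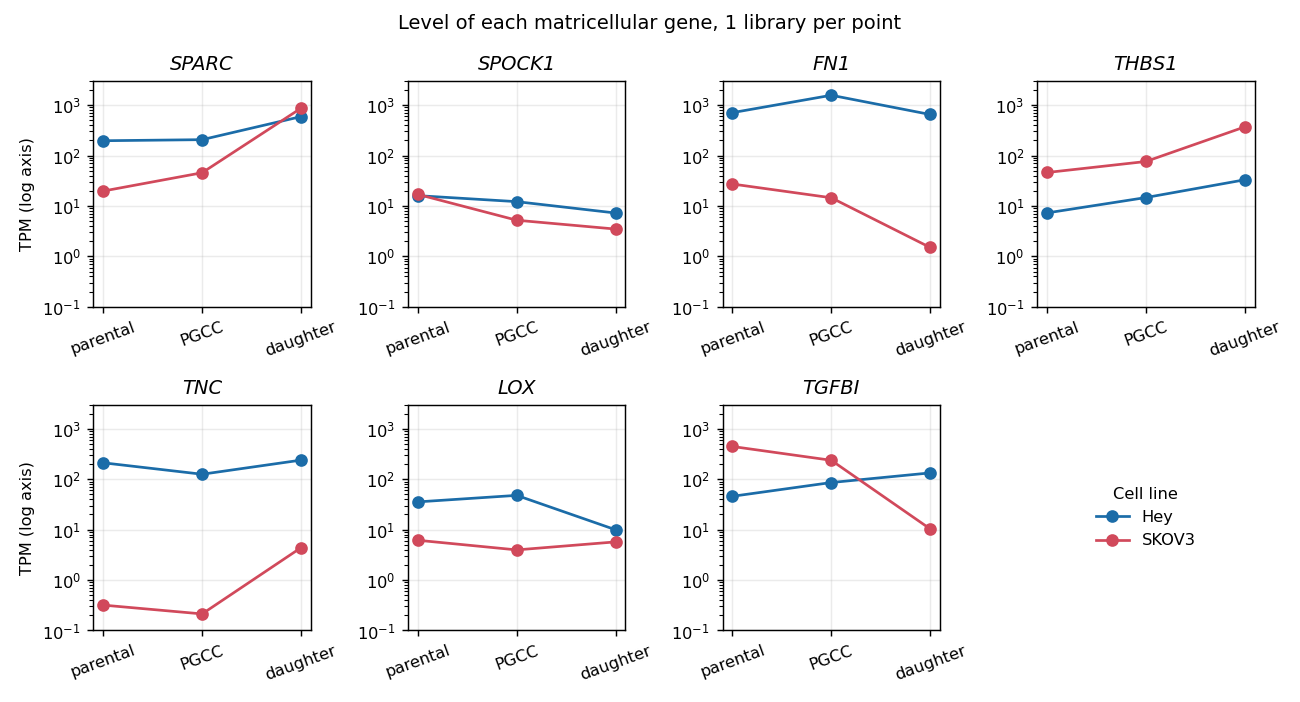
TPM on a log axis of the 7 matricellular genes with a mean of at least 1 TPM, in the 3 states of Hey (blue) and SKOV3 (red), with 1 library per point and lines that only join the states of a cell line. SPARC ends at 591 and 865 TPM in daughter cells, while TGFBI crosses from 45.9 to 133 TPM in Hey and from 446 to 10.4 TPM in SKOV3.

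Fibronectin separated the lines. FN1 was at 709 TPM in Hey parental cells, 1567.5 TPM in Hey PGCCs and 651 TPM in Hey daughter cells. In SKOV3 it was at 27.2 TPM in parental cells, 14.5 TPM in PGCCs and 1.5 TPM in daughter cells. All 3 Hey levels were above all 3 SKOV3 levels, and the lines moved apart from state to state, with Hey at 26.1, 108 and 433 times the SKOV3 level. FN1 rose by 1.14 in Hey PGCCs against parental cells and fell by 1.27 from PGCCs to daughter cells, which left Hey daughter cells at -0.12 from parental cells. In SKOV3 the PGCC difference from parental cells was -0.86, FN1 fell by 2.63 from PGCCs to daughter cells, and it fell by 3.49 from parental to daughter cells. The parental level in SKOV3 was 18.1 times that of the daughter cells. This ratio and that of 433 rest on the 1.5 TPM of the SKOV3 daughter cells, a low level with an unknown number of reads. Its rank among the 14988 genes went from 4844 in SKOV3 parental cells to 7270 in PGCCs and 13592 in daughter cells, against ranks 182, 94 and 188 in Hey.

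LOX, whose product cross-links collagen and elastin, passed 2-fold in Hey and not in SKOV3, and the difference between the lines was not tested. Its levels in Hey were 35.5 TPM in parental cells, 47.8 TPM in PGCCs and 9.95 TPM in daughter cells. It fell by 1.74 in Hey daughter cells against parental cells and fell by 2.16 against PGCCs, and the PGCC difference from parental cells was 0.42. In SKOV3 the levels were 6.15, 3.96 and 5.71 TPM, all below the lowest Hey level, with differences of -0.53, -0.09 and 0.44 for PGCCs against parental cells, daughter against parental cells and daughter cells against PGCCs. When the trend with GC content and length was removed, the first of these was -0.10 and the last was -0.08.

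THBS1 was highest in daughter cells and lowest in parental cells in both lines. The Hey libraries had 7.27 TPM in parental cells, 14.7 TPM in PGCCs and 33.0 TPM in daughter cells. The SKOV3 libraries had 46.0, 76.1 and 369 TPM, each of them above the highest Hey level. THBS1 rose by 2.04 in Hey and by 2.98 in SKOV3 daughter cells against parental cells, which are TPM ratios of 4.53 and 8.01. Against PGCCs it rose by 1.12 in Hey and 2.26 in SKOV3, and the Hey value dropped under 2-fold to 0.91 with quantile normalization and to 0.97 without the trend on GC and length. The PGCC differences from parental cells were 0.92 in Hey and 0.71 in SKOV3, and the Hey value passed 2-fold at 1.08 with mitochondrial genes left out and at 1.00 with a pseudocount of 0.1.

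THBS2, a close relative of THBS1, did not reach 1 TPM in any library. It was listed at 0.0260, 0.156 and 0 TPM in the parental, PGCC and daughter libraries of Hey and at 0, 0.0175 and 0.00976 TPM in SKOV3. It was not counted in any comparison.

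Tenascin-C was abundant in Hey and near the bottom of the table in SKOV3. TNC was at 212 TPM in Hey parental cells, 125 TPM in PGCCs and 239 TPM in daughter cells, and at 0.318, 0.213 and 4.37 TPM in SKOV3. In Hey the PGCC library was the lowest, but the differences of -0.75 for PGCCs against parental cells, 0.92 for daughter cells against PGCCs and 0.18 for daughter against parental cells all stayed within 2-fold. TNC rose by 2.03 in SKOV3 daughter cells against parental cells and by 2.15 against PGCCs. The parental and PGCC levels in SKOV3 were under 1 TPM, and the daughter against parental difference ranged from 1.55 to 3.42 over the 5 alternatives that recompute differences, with the pseudocount of 0.1 at the top.

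TGFBI moved in opposite directions in the lines. In Hey its level was 45.9 TPM in parental cells, 86.0 TPM in PGCCs and 133 TPM in daughter cells. In SKOV3 it was 446 TPM in parental cells, 237 TPM in PGCCs and 10.4 TPM in daughter cells. Hey daughter cells were the highest and SKOV3 daughter cells the lowest of their line. TGFBI rose by 1.52 in Hey daughter cells against parental cells, a TPM ratio of 2.91, and fell by 5.30 in SKOV3, where the parental level was 43.0 times the daughter level. Against PGCCs it fell by 4.39 in SKOV3 daughter cells, and the Hey difference was 0.63. The PGCC differences from parental cells were 0.89 in Hey and -0.91 in SKOV3.

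Periostin, the other fasciclin-domain protein, was not seen above 0.244 TPM. POSTN was listed at 0, 0.244 and 0.0469 TPM in the parental, PGCC and daughter libraries of Hey and at 0.0480, 0.0934 and 0.0522 TPM in SKOV3.

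In PGCCs against parental cells few of the 7 genes moved past 2-fold. In Hey, FN1 rose and none fell, where 7.67% of the 14988 genes rose and 5.22% fell. Leaving mitochondrial genes out of the totals brought the number that rose from 1 to 3, with THBS1 and TGFBI added, and it moved the median of all genes to 0.12. In SKOV3, SPARC rose and SPOCK1 fell, against 9.94% and 4.96% of all genes. The SKOV3 differences of all genes followed the GC content of their transcripts with a Spearman correlation of 0.72 over 13468 genes, against -0.04 in Hey. With the trends on GC content and transcript length removed together, 3 genes fell in SKOV3 in place of 1, with FN1 at -1.16 and TGFBI at -1.18 added. The median difference of the 7 genes was 0.42 in Hey and -0.53 in SKOV3, against 0.00 and 0.02 over all genes.

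In daughter against parental cells most of the genes moved. In Hey, SPARC, THBS1 and TGFBI rose and SPOCK1 and LOX fell, where 6.31% of all genes rose and 3.73% fell. In SKOV3, SPARC, THBS1 and TNC rose and SPOCK1, FN1 and TGFBI fell, against 15.1% and 6.34%. The genes were chosen with these values known, so their counts are not read against those shares. The medians of the 7 differences, 0.18 in Hey and -0.09 in SKOV3, lay near those of all genes, 0.05 and 0.15, with both rises and falls among the 7.

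In daughter cells against PGCCs, SPARC and THBS1 rose and FN1 and LOX fell in Hey, where 9.95% of all genes rose and 8.13% fell. In SKOV3, SPARC, THBS1 and TNC rose and FN1 and TGFBI fell, against 14.6% and 9.25%. The SKOV3 differences of all genes had a Spearman correlation of -0.46 with GC content. The 5 SKOV3 genes stayed past 2-fold when trends on GC content and length were taken out together. The median difference of the 7 genes was 0.63 in Hey and 0.44 in SKOV3, against 0.03 and 0.12 over all genes.

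**Figure D2:**
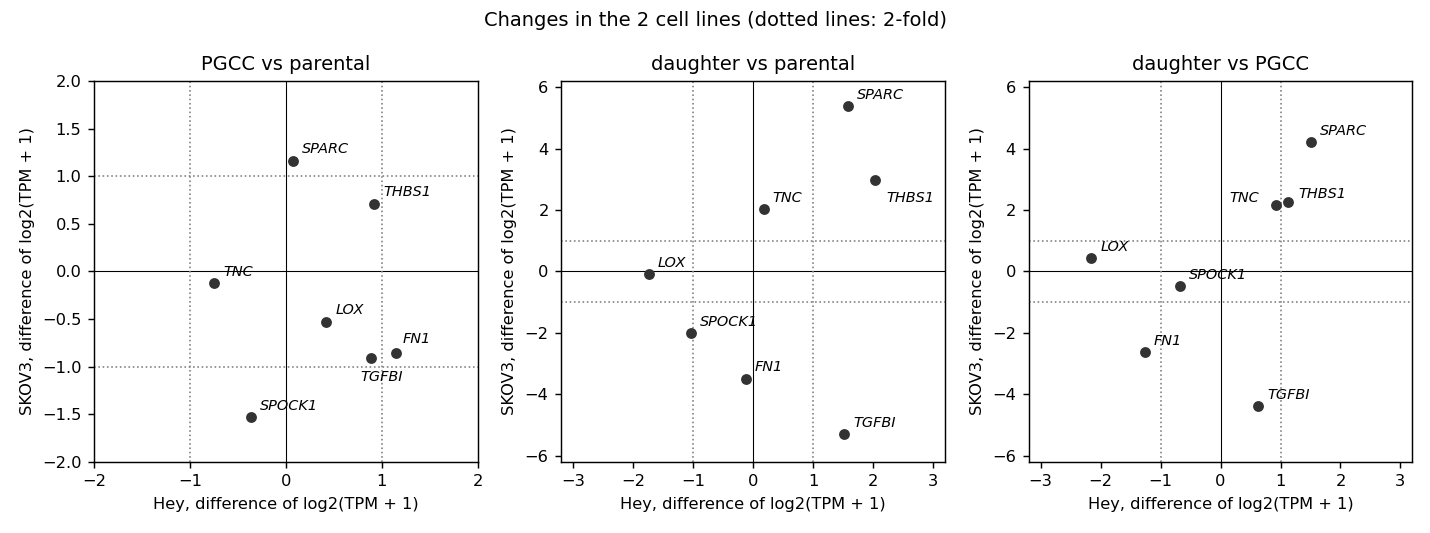
Difference of log2(TPM + 1) in Hey (horizontal axis) against SKOV3 (vertical axis) for the 7 genes in the 3 comparisons of states, with dotted lines at 2-fold, 1 point per gene, and a narrower scale in the panel of PGCCs against parental cells. In daughter against parental cells SPARC (1.58 and 5.38) and THBS1 (2.04 and 2.98) lie at the upper right and TGFBI (1.52 and -5.30) at the lower right.

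Set side by side, the lines shared 3 changes past 2-fold in daughter against parental cells: SPARC and THBS1 rose in both and SPOCK1 fell in both. TGFBI was past 2-fold in opposite directions. Over all 14988 genes, 178 rose in both lines, 58 fell in both and 217 moved past 2-fold in opposite directions. In daughter cells against PGCCs SPARC and THBS1 rose in both lines and FN1 fell in both, and over all genes 182 rose in both, 161 fell in both and 426 moved past 2-fold in opposite directions. Between PGCCs and parental cells none of the 7 genes was past 2-fold in both lines, and over all genes 125 rose in both, 125 fell in both and 184 moved in opposite directions. The comparisons within a line share libraries, so their values are not independent of each other.

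Between the lines, 6 of the 7 genes differed by 2-fold before treatment, 7 did so as PGCCs and 4 as daughter cells, where 35.7%, 43% and 41.8% of all genes did. The median difference of Hey minus SKOV3 over all genes was -0.29, -0.35 and -0.38 in the 3 states, against 2.35, 2.15 and 0.88 over the 7 genes. SPOCK1 was the exception in parental cells, at -0.08 for Hey minus SKOV3, and the sign of that value turned under 3 alternatives. Hey had more FN1 in all 3 states, by 4.65, 6.66 and 8.03, and more TNC, by 7.33, 6.70 and 5.48. SKOV3 had more THBS1 in all 3 states, with differences of -2.51, -2.30 and -3.44. SPARC went from 3.25 in parental cells to 2.15 in PGCCs and -0.55 in daughter cells, and LOX from 2.35 to 3.30 and 0.71. TGFBI went from -3.25 to -1.45 and then to 3.56, so that the line with the higher level changed. The PGCC value of TGFBI was -0.80, within 2-fold, with the GC and length trend removed. In daughter cells SPOCK1 at 0.88 passed 2-fold under 4 of the 5 alternatives that recompute differences and LOX at 0.71 under 3.

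The 9 genes together made up 1221, 2060 and 1665 TPM in the 3 Hey states, in the order above, and 562, 383 and 1259 TPM in SKOV3. FN1 took the largest share in each Hey library, with 58.0%, 76.1% and 39.1%. SPARC took 35.5% in Hey daughter cells, against 16.1% in parental cells and 10.0% in PGCCs. TGFBI led in SKOV3 parental cells and PGCCs with 79.3% and 62.0%, and SPARC led in SKOV3 daughter cells with 68.7%, followed by THBS1 with 29.3%. The level of FN1 relative to SPARC, both in TPM, was 3.61, 7.60 and 1.10 across the Hey states. In SKOV3 FN1 was 1.38 times SPARC in parental cells and 0.319 times SPARC in PGCCs, and in daughter cells SPARC was 575 times FN1. That last ratio rests on an FN1 level of 1.5 TPM.

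**Figure D3:**
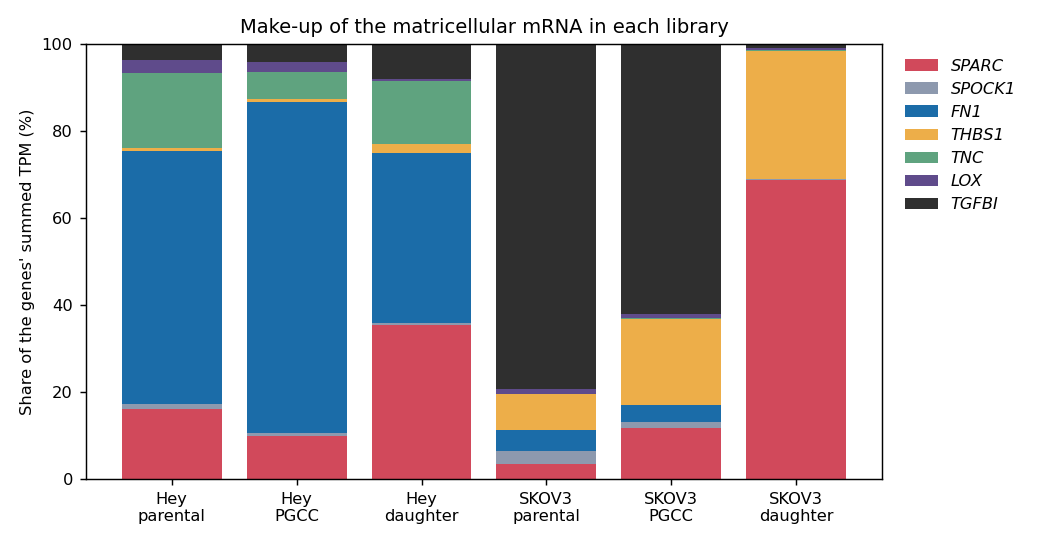
Share in percent of the summed TPM of the 9 matricellular genes taken by each, with 1 bar per library. THBS2 and POSTN are too low to be seen. FN1 takes 39.1% to 76.1% in Hey, TGFBI takes 79.3% and 62.0% in SKOV3 parental cells and PGCCs, and SPARC takes 68.7% in SKOV3 daughter cells.

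The genes with the most similar profile to each member were found by the Pearson correlation of log2(TPM + 1) over the 6 libraries among 8382 genes with a mean of at least 5 TPM and a range of at least 1. With 6 points that fall into 2 lines and 3 shared states, high values arise for many genes, so that these are descriptions. For SPARC they were DTNA (0.99), FGF12 (0.99) and IL27RA (0.98), and FGF12 went from 1.99 TPM in SKOV3 parental cells to 40.5 TPM in daughter cells. For SPOCK1 they were TCF4 (0.98), PPIL3 (0.96) and TMED7 (0.96), with 3 genes in all at 0.95 or more. FN1 had 170 such genes, led by HAGLR (0.997), POPDC3 (0.997) and GLRX (0.996), and TNC had 268, led by CNRIP1 (0.999), MELTF (0.998) and DNMBP (0.997). For THBS1 the leading genes were ZNF780B (0.998), PRKRIP1 (0.994) and RHEBP2 (0.993), for LOX RABGEF1 (0.997), CNST (0.989) and UBE2E1 (0.988), and for TGFBI RBM3 (0.98), EFNB2 (0.96) and NDUFC2 (0.95). Between members, FN1 had correlations of -0.91 with THBS1, 0.85 with TNC and 0.83 with LOX. That of SPARC with TGFBI was -0.82. These values mix the gap between the lines with the changes of state. Within Hey, FN1 and TNC differed in opposite directions in every comparison of states, while FN1 and LOX differed in the same direction. In daughter against parental cells SPARC and TGFBI both rose in Hey, and in SKOV3 SPARC rose and TGFBI fell.

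Of the related genes named next, each is known as a matrix protein, a matrix enzyme, a receptor or a growth factor. They were taken from 10 lists of 67 genes in all, of which 46 had a mean of at least 1 TPM. In PGCCs against parental cells 2 of the 46 rose and 4 fell in Hey, where 7.67% and 5.22% of all genes did, and 7 rose and 1 fell in SKOV3, against 9.94% and 4.96%. In daughter against parental cells 1 rose and 5 fell in Hey, against 6.31% and 3.73% of all genes, and 14 rose and 7 fell in SKOV3, against 15.1% and 6.34%. In daughter cells against PGCCs 3 rose and 7 fell in Hey, against 9.95% and 8.13%, and 8 rose and 10 fell in SKOV3, against 14.6% and 9.25%. The 14 that rose in SKOV3 daughter against parental cells include FBLN1, FBLN2, FBLN5 and EFEMP2, and the 7 that fell include EFEMP1. Values follow for only some of the called genes. The medians of the 46 differences lay between -0.14 and 0.18. CD36 reached the mean of 1 TPM only through the SKOV3 daughter library, at 7.96 TPM, and CCN5 only through SKOV3 PGCCs, at 6.67 TPM. The counted rises of these genes in those libraries are therefore not independent of the filter. Values of the related genes are given without removal of the GC and length trend. In SKOV3 PGCCs against parental cells the differences of all genes had a Spearman correlation of 0.72 with GC content.

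None of the 3 relatives of SPARC with a mean of at least 1 TPM rose past 2-fold in any of the 6 comparisons. FSTL1, a secreted glycoprotein of the family, was at 254, 309 and 320 TPM in the Hey states and 299.7, 318 and 565 TPM in the SKOV3 states, with a SKOV3 daughter against parental difference of 0.91. SMOC2 fell by 3.47 in SKOV3 daughter cells against parental cells, from 10.4 to 0.0302 TPM, and stayed at or under 0.14 TPM in Hey. Of the thrombospondins, THBS3 rose by 1.89 in SKOV3 daughter cells against parental cells, from 5.28 to 22.3 TPM, and was at 2.31 to 2.69 TPM in Hey. Among the receptors of THBS1, CD36 was at 0.156 TPM in SKOV3 parental cells and 7.96 TPM in daughter cells, a difference of 2.96. It passed the filter only through that daughter library, and did not exceed 0.136 TPM in Hey. CD47 stayed within 2-fold in all 6 comparisons. Other members of the tenascin and fasciclin families did not reach a mean of 1 TPM.

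Among the relatives of LOX, LOXL1 fell by 1.81 in Hey PGCCs against parental cells, fell by 1.46 in Hey daughter cells against parental cells, and rose by 1.36 and 1.70 in the same comparisons in SKOV3. LOXL2 was the most abundant lysyl oxidase in every library, at 75.0, 50.9 and 139.7 TPM in Hey and 35.4, 71.6 and 47.4 TPM in SKOV3, and rose by 1.44 in Hey daughter cells against PGCCs. Of the fibrillar collagen genes COL1A2 and COL3A1 did not reach 1 TPM in any library. COL1A1 rose by 2.37 in SKOV3 daughter cells against parental cells, from 2.35 to 16.3 TPM, and COL5A1 fell by 3.59, from 19.9 to 0.731 TPM.

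ITGA5, the alpha chain of the fibronectin receptor, was at 71.4, 93.0 and 81.2 TPM in Hey and fell by 1.22 in SKOV3 daughter cells against parental cells, from 33.8 to 13.9 TPM. Its partner ITGB1 was between 617 and 1331 TPM in all 6 libraries and stayed within 2-fold in every comparison of states. ITGB3 fell by 3.96 in Hey daughter cells against parental cells, from 39.9 to 1.64 TPM. SDC4, a syndecan that binds fibronectin, rose by 1.54 in SKOV3 daughter cells against parental cells, from 104 to 304 TPM. In the same comparison SDC1, another syndecan, fell by 1.19, from 45.8 to 19.6 TPM. The integrin chain ITGA4 rose by 1.15 there, from 4.98 to 12.3 TPM. Of the 12 receptor genes with a mean of at least 1 TPM, 3 rose and 2 fell, where 15.1% and 6.34% of all genes did.

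Of the CCN family, matricellular proteins of another kind, CCN1 fell in Hey PGCCs and rose in SKOV3 PGCCs. It was at 459 TPM in Hey parental cells, 105.5 TPM in PGCCs and 323 TPM in daughter cells, and at 3.45, 46.7 and 49.9 TPM in SKOV3. Against parental cells it fell by 2.11 in Hey and rose by 3.42 in SKOV3 PGCCs. CCN2 fell by 1.16 in Hey PGCCs against parental cells, with a difference of 0.15 in SKOV3. In SKOV3 daughter against parental cells it rose by 1.13, from 75.9 to 167 TPM, and the Hey difference was -0.28. SPP1 (osteopontin) rose by 1.76 in Hey PGCCs against parental cells and fell by 4.14 from PGCCs to daughter cells, from 188 to 9.68 TPM. Its SKOV3 differences in these comparisons were -0.03 and 0.81, both within 2-fold.

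TGFBI is named for its induction by transforming growth factor beta. The ligand gene TGFB1 stayed within 2-fold in all 6 comparisons, at 15.9 to 20.8 TPM in Hey and 11.9 to 19.8 TPM in SKOV3. TGFB2 rose by 3.01 in SKOV3 daughter cells against parental cells, from 3.005 to 31.3 TPM, in the library where TGFBI was lowest, and was at 2.08 to 3.53 TPM in Hey. The receptor genes TGFBR1 and TGFBR2 stayed within 2-fold in all 6 comparisons, and TGFBR3 fell by 1.12 in SKOV3 daughter cells against parental cells, from 4.70 to 1.63 TPM. Any link between the levels of these genes and that of TGFBI was not tested.

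**Figure D4:**
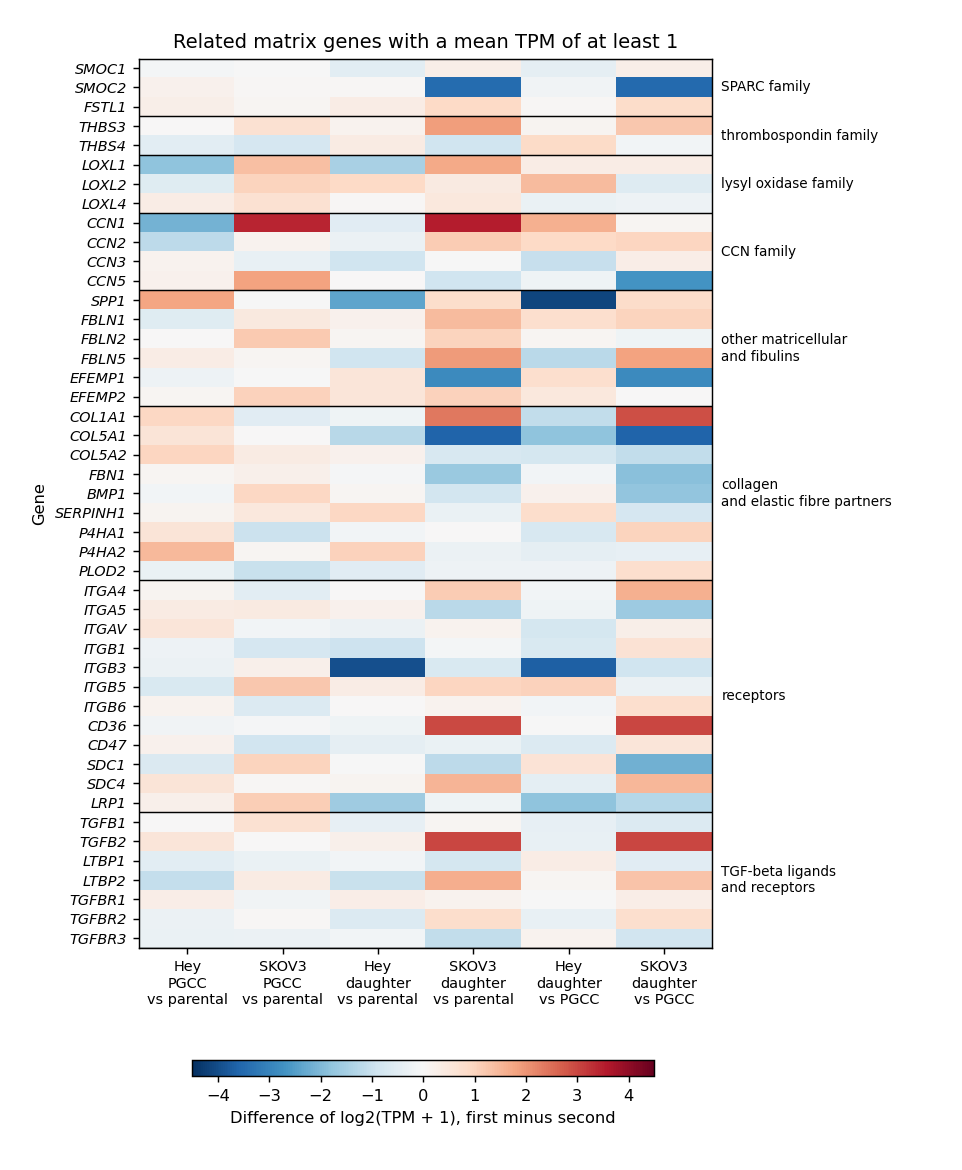
Difference of log2(TPM + 1) for the 46 related matrix genes with a mean of at least 1 TPM, with 1 row per gene grouped by list and 1 column per comparison, red for higher and blue for lower in the state named first. The column of SKOV3 daughter against parental cells holds the most rises, 14, and the most deeply coloured cells include CCN1 in SKOV3 and SPP1 and ITGB3 in Hey.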

How the data were processed

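Total RNA of the ovarian cancer lines Hey and SKOV3, each as parental, PGCC and daughter cultures, was sequenced with 1 library per group. The authors deposited TPM values, 1 per gene symbol and library, and the submitters' processing notes name fastp, Salmon 0.14.1 and hg38. The annotation release, strand setting, bias options and the step from transcripts to symbols are not given in the sources used here. TPM holds no read counts, so the depth behind each gene is unknown and no interval or floor is given.

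Groups were taken from the sample labels. Differences of log2(TPM + 1) were computed between pairs of libraries with Python 3.11.15, numpy 2.4.6 and pandas 2.3.3, and called at a difference of 1 (2-fold) among 14988 genes with a mean of at least 1 TPM. With 1 library per group no p-value was computed. The members and gene lists were chosen with earlier results of these data known. The named genes were all members and, for each member measured at 1 TPM or more, the 3 genes of highest correlation. List genes were given by counts, with values for only some of those called or defining a list.

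The 7 alternatives were a pseudocount of 0.1, median ratio scaling, quantile normalization, mitochondrial genes left out, a 1.5-fold threshold, no filter, and removal of the trend of each difference with GC content and transcript length. That trend was fitted by lowess (fraction 0.3, 2 passes, statsmodels 0.14.6) on canonical GENCODE transcripts of 13468 of the genes (89.9%). The calculation was tested on simulated data. Promoters came from RefSeq (GRCh38.p14).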

Additional observations from a re-analysis of the deposited data

Results flagged for a closer look

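TGFBI was higher in the daughter cells than in the parental cells of Hey, by 1.52 on the log2(TPM + 1) scale, and lower by the same comparison in SKOV3, at -5.30. It was picked out because this comparison passed 2-fold in both lines with opposite signs. With 1 library per state and line the difference between the lines was not tested.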

How the results depend on the processing

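Replicates could not be paired between states within a line, because each group held 1 library. A fit over both lines with the line as a block was not run. Of 315 differences of members under the 5 alternatives that recompute differences, 294 kept their direction and their side of 2-fold, 12 passed it newly, 4 no longer passed it and 5 within 2-fold changed sign, and no called difference turned. The number that rose in Hey PGCCs against parental cells was 1, and became 2 with a pseudocount of 0.1, 3 with mitochondrial genes left out and 3 at a 1.5-fold threshold, where the number that fell went from 0 to 1. In SKOV3 PGCCs against parental cells the threshold of 1.5-fold gave 2 that rose and 3 that fell, and removing the GC and length trends together gave 3 that fell. In Hey daughter against parental cells 1 fell with mitochondrial genes left out, SPOCK1 being lost. In Hey daughter cells against PGCCs 1 rose with quantile normalization and 1 with the trend removed, THBS1 being lost both times, and 4 rose at 1.5-fold. The 1.5-fold threshold adds calls by its construction, and for the other alternatives the cause was not tested. Leaving out mitochondrial genes moved the median of all genes in daughter against parental cells from 0.05 to 0.12 in Hey and from 0.15 to 0.24 in SKOV3. The SKOV3 daughter against parental differences ranged from 5.16 to 5.75 for SPARC and from -5.59 to -5.23 for TGFBI. The lack of replicates and of read counts limits every value, and those under 1 TPM most.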
